A study of Homo sapiens with 18 samples.

Results

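The genes described here are 39 genes of the pathways that mend damaged or mispaired bases, taken by name from the 58884 genes in the deposited counts. Of these, 11 encode DNA glycosylases, 13 act after base removal or on single-strand breaks, 10 belong to nucleotide excision repair and 5 to mismatch repair. RNA was sequenced from T47D cells, a luminal, estrogen receptor-positive breast cancer line, in 18 libraries. Cells labelled WT (line T47D AAV) and cells labelled PARP1 KO (line T47D JL) were kept for 48 hours with the vehicle DMSO, niraparib or olaparib, with 3 libraries for each of the 6 groups. Both drugs were given at 10 μmol/L, and the labels state no number of clones for the knockout line. The study's methods describe 3 dishes for each condition but do not tie a library to a dish, so P values measure the spread between these libraries only.

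In base excision repair, a glycosylase cuts a damaged or wrong base from its sugar, an AP endonuclease opens the strand, and a polymerase and a ligase close the gap. PARP1, a target of both drugs, binds single-strand breaks and recruits XRCC1 and its partner ligase LIG3, and PARP inhibitors can hold PARP1 on the break. In the study olaparib also bound PARP2 with similar affinity, and niraparib also bound lanosterol synthase, an enzyme of cholesterol synthesis. Nucleotide excision repair removes a short stretch of strand around bulky lesions, and mismatch repair corrects replication errors. Several of these enzymes, such as FEN1, LIG1 and UNG, also serve at replication forks.

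Promoter windows are shown for the members called with niraparib in WT cells, MUTYH, TDP1 and ERCC5, and for LIG1, as a member with an E2F motif. Sequences run from 250 bases before to 50 after a RefSeq start on GRCh38.p14. The window of MUTYH is chr1:45340071-45340370 on the minus strand and that of TDP1 is chr14:89955677-89955976 on the plus strand. The ERCC5 window is chr13:102845782-102846081 on the plus strand and that of LIG1 is chr19:48170295-48170594 on the minus strand. Capitals mark matches to TTTGAA, the cell cycle homology region (CHR), or to the E2F spellings TTTCCCGC, TTTCGCGC, TTTGCCGC and TTTGGCGC, on either strand. No E2F spelling contains TTTGAA.
MUTYH: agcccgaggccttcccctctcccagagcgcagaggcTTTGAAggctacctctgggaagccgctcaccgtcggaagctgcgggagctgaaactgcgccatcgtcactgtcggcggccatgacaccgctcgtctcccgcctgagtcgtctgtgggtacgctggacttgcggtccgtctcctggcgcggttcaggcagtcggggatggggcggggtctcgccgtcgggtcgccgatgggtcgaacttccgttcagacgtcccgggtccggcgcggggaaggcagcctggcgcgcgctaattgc
TDP1: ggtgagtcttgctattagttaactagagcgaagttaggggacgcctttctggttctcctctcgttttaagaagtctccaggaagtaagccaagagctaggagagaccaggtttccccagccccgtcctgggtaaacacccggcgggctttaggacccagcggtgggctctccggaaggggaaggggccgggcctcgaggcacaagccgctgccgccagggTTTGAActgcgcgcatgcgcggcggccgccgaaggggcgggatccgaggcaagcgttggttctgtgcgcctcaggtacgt
ERCC5: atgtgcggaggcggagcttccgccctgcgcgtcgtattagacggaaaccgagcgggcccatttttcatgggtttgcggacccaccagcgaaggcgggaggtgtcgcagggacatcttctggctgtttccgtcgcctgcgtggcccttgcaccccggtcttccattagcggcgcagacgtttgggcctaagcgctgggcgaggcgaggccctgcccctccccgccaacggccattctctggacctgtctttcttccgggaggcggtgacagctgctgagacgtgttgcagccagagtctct
LIG1: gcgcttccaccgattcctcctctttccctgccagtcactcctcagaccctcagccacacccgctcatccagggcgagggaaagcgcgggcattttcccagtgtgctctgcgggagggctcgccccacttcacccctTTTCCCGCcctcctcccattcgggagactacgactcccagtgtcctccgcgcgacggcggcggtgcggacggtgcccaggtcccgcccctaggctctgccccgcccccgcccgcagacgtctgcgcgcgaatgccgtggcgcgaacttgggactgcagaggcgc

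An E2F spelling occurred in 6 of the 53 windows of members (11.3%) and in 3.31% of all 35116 windows. The 53 windows cover 36 members, with none for NEIL2, SMUG1 and POLB. The 5 members with an E2F match were LIG1, MSH3, MSH6, PMS2 and UNG. TTTGAA occurred in 8 member windows (15.1%, against 15.2% of all windows), those of ERCC1, ERCC6, HPF1, MUTYH, NEIL3, TDP1, UNG and XRCC1. A match describes these letters in this window and no factor was measured on it. MUTYH has 3 RefSeq starts, and only the window shown holds a match.

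PARP1 itself was counted at 337.0 ± 26.95 CPM (counts scaled to library size, SD, n = 9) in the libraries labelled WT and at 25.1 ± 1.38 CPM in those labelled PARP1 KO, 7.45% of the WT level (exact permutation test, two-sided P = 4.1e-05). The 2 sets of libraries did not overlap, from 291 to 373 CPM against 22.9 to 27.6. Library totals were between 28890837 and 52251288 counts, and mitochondrial genes took between 4.39 and 5.685% of them. Single libraries stood apart from their replicates. The chi-square per gene of WT DMSO replicate 1 against the others of its group was 17.5 or more, where those 2 gave 3.28 with each other. For WT niraparib replicate 2 it was 12.2 and 16.8 (3.41 for the others), for PARP1 KO niraparib replicate 3 11.7 and 14.7 (3.13 for the others) and for PARP1 KO DMSO replicate 3 10.5 and 5.74 (3.15 for the others), and the PARP1 KO olaparib libraries differed from each other by 8.21 to 18.3. All 8 luminal markers were detected in every group, and their summed level was 12330 to 12850 CPM in WT cells with DMSO, 8836 to 9756 with niraparib and 9640 to 10060 with olaparib. For PARP1 KO cells it was 13670 to 14400 CPM with DMSO, 12630 to 13000 with niraparib and 11610 to 12680 with olaparib. In bulk RNA, fewer cells of a type and less RNA per cell cannot be told apart. Of 8 markers of other cell types, 7 had at most 36 counts in any library, and the exception was COL1A1. A list of 30 other S phase genes summed to between 2934 and 3015 CPM with niraparib in WT cells against 2094 to 2293 with DMSO, and 20 G2/M genes to between 2529 and 2687 against 5579 to 6102. The S phase sums of PARP1 KO cells were 2513 to 2541 CPM with DMSO and 2339 to 2388 with niraparib. The part of this cell cycle difference in the members' changes was not tested.

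Without drug, WT cells expressed the members over a wide range. RAD23B, which helps recognise bulky lesions, had the highest level per length, at 124 ± 3.295 CPM per kilobase of exon not shared with another gene (SD, n = 3, WT with DMSO). The flap endonuclease FEN1 (50.6 ± 5.44), the main AP endonuclease APEX1 (47.4 ± 2.13) and the ligase adaptor DDB1 (46.9 ± 1.20 CPM per kilobase) followed, and their libraries overlapped. UNG, the uracil glycosylase, came next with 33.2 ± 2.10 CPM per kilobase and was separate from its neighbours in the order. The median member stood at 8.21 CPM per kilobase, with 16 members at 10 or more and 20 between 1 and 10. Of the 38 neighbouring pairs in this order, 23 overlapped between their libraries. The order of ERCC8 and ERCC4 changed places when all exon bases were used. At the low end, MUTYH had 2.07 ± 0.184, the endonuclease ERCC5 0.777 ± 0.121 and the chromatin remodeller CHD1L 0.222 ± 0.0293 CPM per kilobase. APLF, a break repair factor, had between 0 and 8 counts in a library. Same-strand genes overlap 63.2% of the exon bases of CHD1L, 57.5% of those of ERCC5, 28.3% for ERCC8 and 22.9% for APLF, and reads on such bases were not counted. PMS2 has near-identical copies in the genome, so its counts are uncertain.

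**Figure D1:**
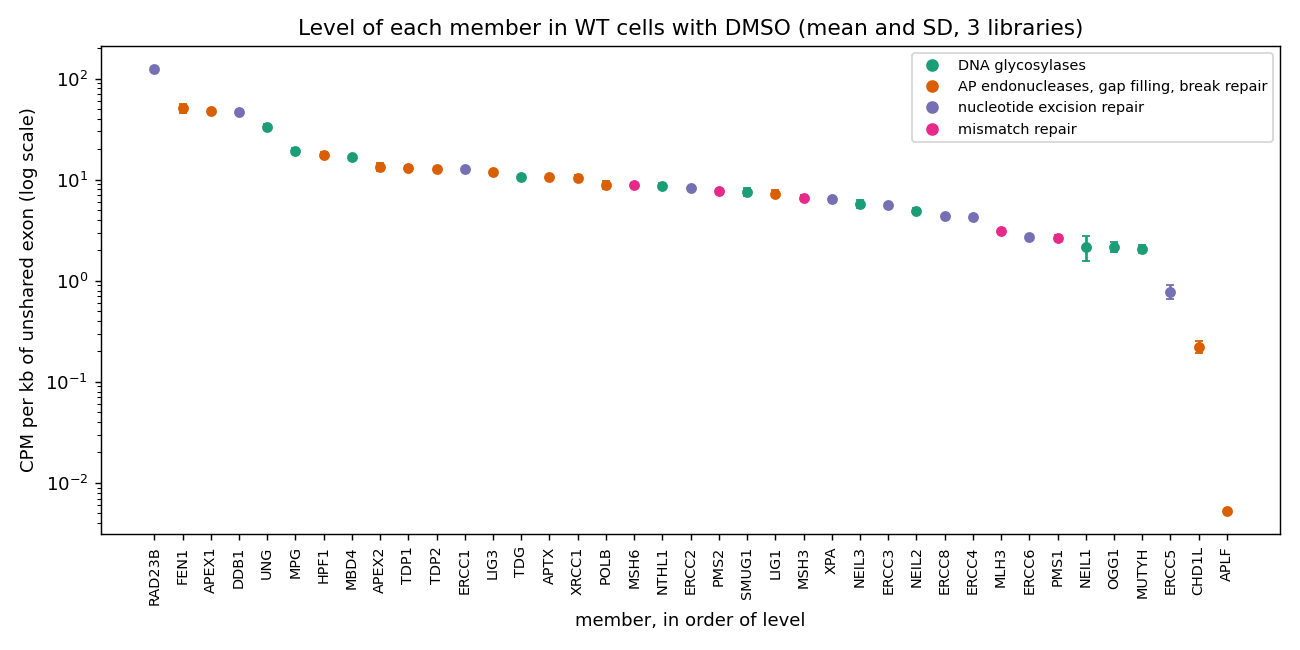
Level of each of the 39 members in WT cells with DMSO, as CPM per kilobase of unshared exon on a log axis (points are means of 3 libraries, bars the SD, colours the pathway; no bar for APLF, which had 8 counts or fewer). RAD23B stands at 124 and MUTYH at 2.07 CPM per kilobase, with ERCC5, CHD1L and APLF below 1.

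Niraparib moved repair genes of WT cells in both directions. Members were called where the edgeR quasi-likelihood test gave an adjusted P under 0.05 together with a difference over 1.5-fold. By this rule 3 of 39 members were called, MUTYH upward and TDP1 and ERCC5 downward, where 13.8% of all 22446 tested genes were called. At an adjusted P value below 0.05 alone, 13 members rose (19.9% of all genes did) and 11 fell (18.1% of all genes). The median log2 fold change of the members was 0.0028, against -0.02 over all genes, and had the other sign in 4 of 13 alternatives (-0.01 to 0.04). Leaving out 1 library in turn gave 20 to 24 members below 0.05. Without WT DMSO replicate 1 there were 24 below 0.05 and 2 called, and without WT niraparib replicate 2 there were 24 and 4.

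TDP1, which clears topoisomerase I and other blocked ends from strand breaks, had 79.7, 81.9 and 81.7 CPM in the 3 WT libraries with DMSO. With niraparib it had 47.8, 44.05 and 41.3 CPM, below every other library of the series. Olaparib left it at 74.25, 77.4 and 70.6 CPM. PARP1 KO libraries had 70.5, 71.6 and 75.8 CPM with DMSO, 68.6, 67.8 and 62.5 with niraparib, and 81.2, 75.2 and 74.0 with olaparib. Niraparib changed it by -0.87 on the log2 scale in WT cells (SE 0.058, adjusted P = 7.6e-11) and -0.13 in PARP1 KO cells (SE 0.058, adjusted P = 0.50). TDP1 lies on chromosome 14 from 89954939 to 90044768 of GRCh38.

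MUTYH, the glycosylase that removes adenine placed opposite 8-oxoguanine, had 8.70, 7.29 and 8.23 CPM in WT libraries with DMSO and 11.8, 15.5 and 13.55 CPM with niraparib. With olaparib it had 10.1, 9.86 and 10.5 CPM, between the other groups and overlapping neither. In PARP1 KO cells it had 9.28, 7.965 and 6.53 CPM with DMSO, 6.87, 6.92 and 8.69 with niraparib, and 8.78, 8.32 and 9.88 with olaparib, and all 3 groups overlapped. In WT cells niraparib gave a log2 fold change of 0.77 (SE 0.10, adjusted P = 2.8e-06). MUTYH (chromosome 1, 45329163 to 45340470) lies head to head with TOE1, and their exons overlap by 419 bases on opposite strands. TOE1, named after its values were seen, rose from 5.97 ± 0.449 to 11.4 ± 0.396 CPM with niraparib (SD, n = 3; log2 fold change 0.93, adjusted P = 6.2e-07), but with olaparib its log2 fold change was 0.02 (adjusted P = 0.93). The counts were made by strand, and any carry-over between these genes was not tested.

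ERCC5 encodes the endonuclease that cuts 3′ of a bulky lesion. It had only 59 to 134 counts in a library, or 3.17, 2.46 and 3.34 CPM in WT cells with DMSO and 1.755, 2.07 and 1.97 CPM with niraparib. The groups were separate, and the log2 fold change was -0.61 (SE 0.18, adjusted P = 0.0098). It fell short of 1.5-fold without WT niraparib replicate 1 (-0.56, adjusted P = 0.041), without WT DMSO replicate 1 (-0.57, adjusted P = 0.023) and without WT DMSO replicate 3 (-0.53, adjusted P = 0.057). Olaparib libraries of WT cells had 1.97, 2.38 and 2.54 CPM. The PARP1 KO libraries had it at 2.44, 2.38 and 2.15 CPM with DMSO, 3.36, 2.80 and 3.03 with niraparib and 2.18, 2.64 and 2.76 with olaparib. In that genotype every niraparib library lay above every DMSO library. The change there (0.40, SE 0.17, adjusted P = 0.49) did not pass. ERCC5 (chromosome 13, 102807146 to 102876001) shares exons with BIVM, which fell by 0.35 on the log2 scale in WT cells with niraparib (adjusted P = 0.0018). Same-strand genes overlap 57.5% of the 9062 exon bases of ERCC5 and 25.9% of the 7952 of BIVM. BIVM alone therefore cannot account for this overlap, and the counts of ERCC5 cover its unshared exon bases only.

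**Figure D2:**
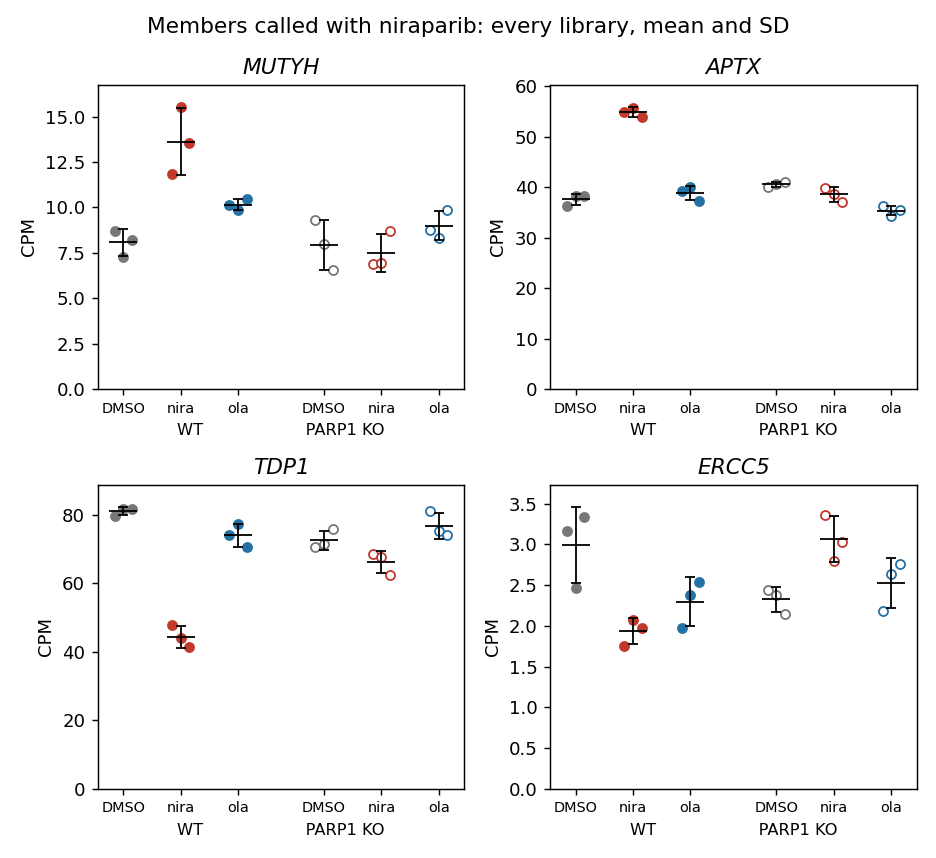
CPM of the 4 members called in any of the 9 comparisons, in every library (points), with group means and SD, for WT (filled) and PARP1 KO (open) cells. With niraparib, the WT libraries of MUTYH and APTX lie above, and those of TDP1 below, all libraries of the other 5 groups, while ERCC5 overlaps with its olaparib group.

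Among the glycosylases, SMUG1 (log2 fold change 0.28, adjusted P = 0.0012) and TDG (0.20, adjusted P = 0.0024) also rose with niraparib in WT cells. Both remove uracil, and TDG also acts on thymine in mismatches and on oxidised methylcytosine. NTHL1, NEIL2 and NEIL3 fell. NTHL1, which acts on oxidised pyrimidines, had 19.4, 21.9 and 22.3 CPM with DMSO and 15.7, 14.4 and 14.9 with niraparib, a separate group (log2 fold change -0.51, SE 0.076, adjusted P = 1.2e-05). NEIL2 was at 17.3, 15.6 and 17 CPM with DMSO and 11.5, 12.4 and 11.6 with niraparib, again without overlap (-0.49, SE 0.092, adjusted P = 1.8e-04). NEIL3 fell by 0.25 (adjusted P = 0.019), which was lost without any 1 of 3 libraries (adjusted P up to 0.12). The other 5 did not pass: UNG at 0.00, MPG, which removes alkylated bases, at 0.04, the 8-oxoguanine glycosylase OGG1 at -0.03, MBD4 at -0.04 and NEIL1, which like NTHL1 and NEIL2 acts on oxidised pyrimidines, at -0.40. NEIL1 varied between replicates, with 19.7 CPM in WT DMSO replicate 1 against 12.35 and 13.1 CPM in the other two.

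Of the 13 genes of the later steps 5 rose and 2 fell, where 19.9% of all genes rose and 18.1% fell. XRCC1, the scaffold of single-strand break repair, had 32.3, 36.2 and 33.0 CPM with DMSO and 48.8, 51.9 and 48.4 with niraparib, without overlap (log2 fold change 0.55, SE 0.058, adjusted P = 9.4e-08). FEN1 had 95.3, 115 and 116 CPM with DMSO and 159, 156 and 165 with niraparib (0.55, SE 0.061, adjusted P = 3.8e-07). APTX, which releases AMP from failed ligations, had 36.3, 38.2 and 38.2 CPM with DMSO and 54.9, 55.7 and 53.9 with niraparib (0.54, SE 0.054, adjusted P = 4.0e-08). These 3 groups of niraparib libraries lay above all libraries of their DMSO groups. The replicative ligase LIG1 rose by 0.35 and the second AP endonuclease APEX2 by 0.29 (adjusted P = 2.8e-04 and 4.6e-04).

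LIG3, the ligase that works with XRCC1, went the other way, with 159, 151 and 149 CPM in WT cells with DMSO and 117, 121 and 111 with niraparib (log2 fold change -0.39, SE 0.050, adjusted P = 1.1e-06). All niraparib libraries lay below the DMSO libraries. POLB, the gap-filling polymerase, was at 0.14, APEX1 at -0.09, TDP2, which clears topoisomerase II from DNA ends, at 0.13, and HPF1, which directs PARP1 to serines, at -0.09, and none of these passed (adjusted P from 0.11 to 0.39). CHD1L and APLF, with too few counts for a precise estimate, were at -0.35 (SE 0.52) and 2.19 (SE 1.1).

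In nucleotide excision repair, RAD23B had 553, 582 and 575 CPM with DMSO and 397, 369 and 406 with niraparib in WT cells, with no overlap (log2 fold change -0.55, SE 0.048, adjusted P = 7.1e-09). ERCC2, a helicase of the TFIIH complex, was counted at 55.1, 52.4 and 51.3 CPM with DMSO against 38.9, 34.6 and 39.1 (-0.50, SE 0.059, adjusted P = 5.0e-07). ERCC1 fell by 0.34 (adjusted P = 5.8e-06) and DDB1 by 0.14 (adjusted P = 0.024), the latter lost without WT DMSO replicate 2 or 3 (0.092 and 0.075). In this pathway 3 members rose: ERCC4, the nuclease partner of ERCC1, by 0.28 (adjusted P = 4.1e-04), the damage-binding protein XPA by 0.28 (adjusted P = 0.016) and ERCC6, a transcription-coupled repair factor, by 0.18 (adjusted P = 0.0089). The XPA libraries were 11.7, 11.3 and 12.5 CPM with DMSO and 15.6, 14.8 and 12.8 with niraparib. XPA missed the threshold without WT niraparib replicate 1 (adjusted P = 0.093) and without WT DMSO replicate 2 (adjusted P = 0.067). The helicase ERCC3 (-0.01) and ERCC8 (0.02) did not pass.

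Of the 5 mismatch repair members, MLH3 had 24.7, 25.6 and 26.8 CPM with DMSO and 37.0, 36.4 and 34.6 with niraparib, and the groups were separate (log2 fold change 0.48, SE 0.074, adjusted P = 1.5e-05). PMS1 rose by 0.32 (adjusted P = 0.0019) and PMS2 fell by 0.16 (adjusted P = 0.031), the latter lost without any 1 of 3 libraries (adjusted P up to 0.093). All 3 encode MutL-type subunits. The mismatch-binding subunits MSH3 and MSH6, whose promoter windows hold E2F matches, were at 0.03 and -0.05 (95% intervals from -0.10 to 0.15 and from -0.15 to 0.05, from the estimate and its SE under a normal approximation). Of the other members with such a match, UNG was at 0.00, PMS2 fell and LIG1 rose. XRCC1, FEN1 and APTX rose and had no match to these E2F spellings in any window. A link between a match and a change was not tested.

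**Figure D3:**
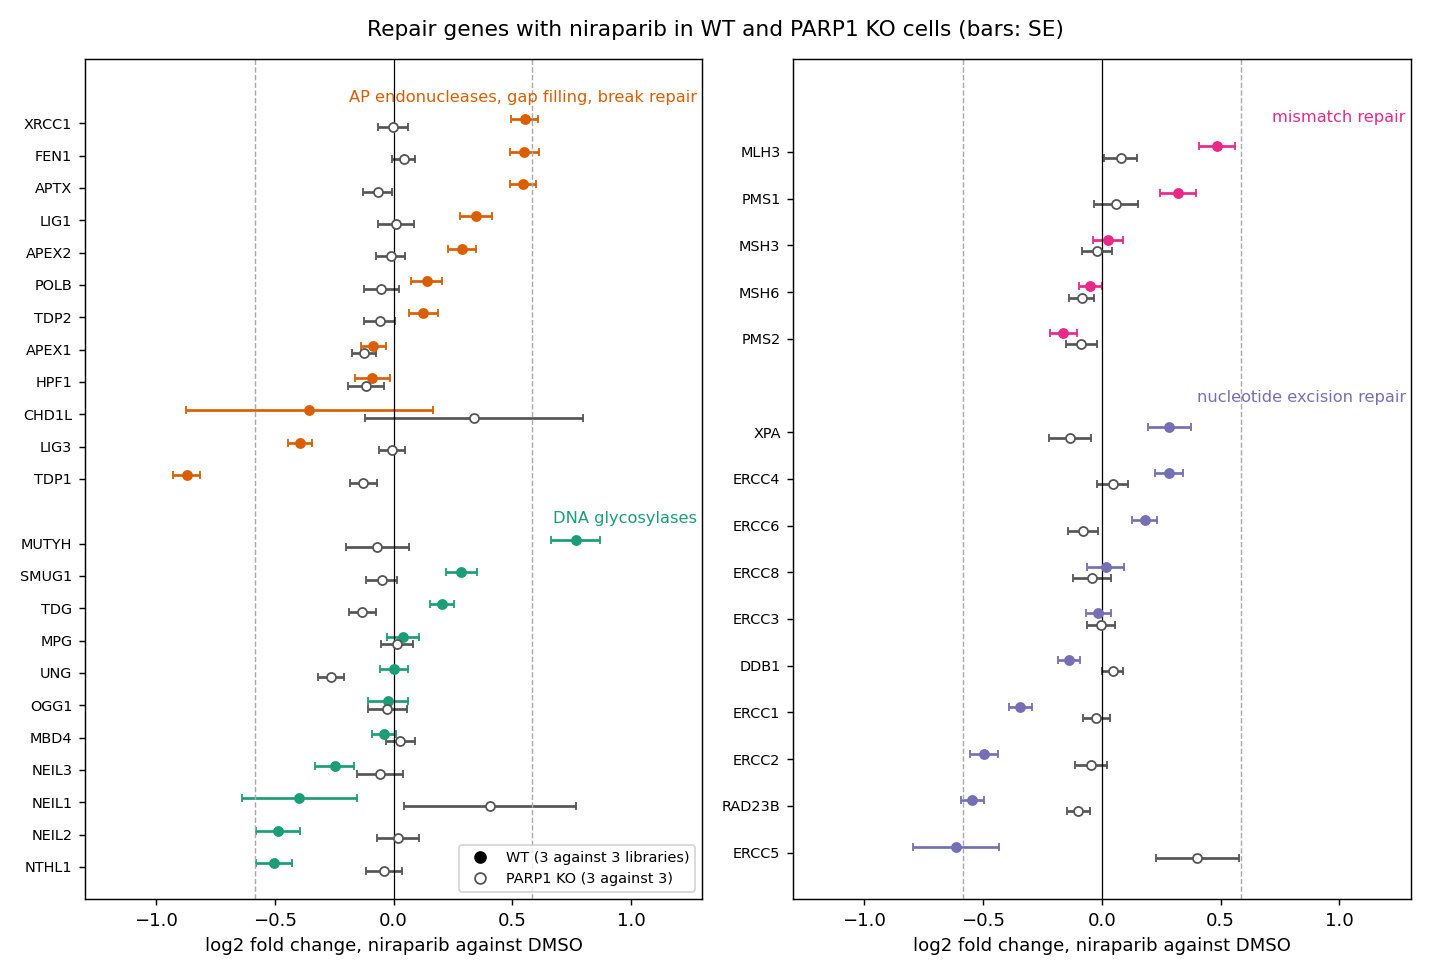
Log2 fold change with niraparib of 38 members (APLF left out for its low counts) in WT cells (filled) and PARP1 KO cells (open), by pathway; bars are the SE, dashed lines mark 1.5-fold. WT values run from -0.87 (TDP1) to 0.77 (MUTYH), while no member passed an adjusted P value of 0.05 in PARP1 KO cells.

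The changes of some working partners can also be read as a ratio within each library, in which scaling between libraries cancels. The 6 pairs were chosen from textbook partners after the values were seen, so these ratios restate the single-gene changes and no test was made of them. The log2 ratio of XRCC1 to LIG3, taken relative to its WT DMSO mean, was 0.92, 0.96 and 0.98 in the WT niraparib libraries, against -0.12, 0.12 and 0.0019 with DMSO. It was 0.29, 0.39 and 0.40 with olaparib, between the other groups. In PARP1 KO cells it was 0.21 ± 0.018 with DMSO, 0.22 ± 0.078 with niraparib and 0.04 ± 0.093 with olaparib (SD, n = 3). For ERCC4 to ERCC1, which form a nuclease, the ratio was 0.63 ± 0.048 with niraparib in WT cells, and the other groups had means between 0.00 and 0.10. The helicases ERCC2 and ERCC3 of TFIIH gave -0.48 ± 0.11 with niraparib in WT cells and means from -0.03 to 0.11 elsewhere. For ERCC6 to ERCC8, partners in transcription-coupled repair, the ratio was 0.36 ± 0.13 with olaparib and 0.16 ± 0.070 with niraparib in WT cells, and 0.26 ± 0.17 with olaparib in PARP1 KO cells. FEN1 to LIG1, which act in turn on Okazaki fragments, gave no separate group with niraparib in WT cells (0.25, 0.03 and 0.37 against -0.30, 0.19 and 0.11 with DMSO). Its mean in PARP1 KO cells was 0.38 ± 0.083 with DMSO, 0.42 ± 0.16 with niraparib and 0.11 ± 0.055 with olaparib. MSH6 to MSH3 stayed between -0.08 and 0.11 in all group means. Group means over 3 libraries against 3 cannot reach an exact permutation P below 0.1.

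**Figure D4:**
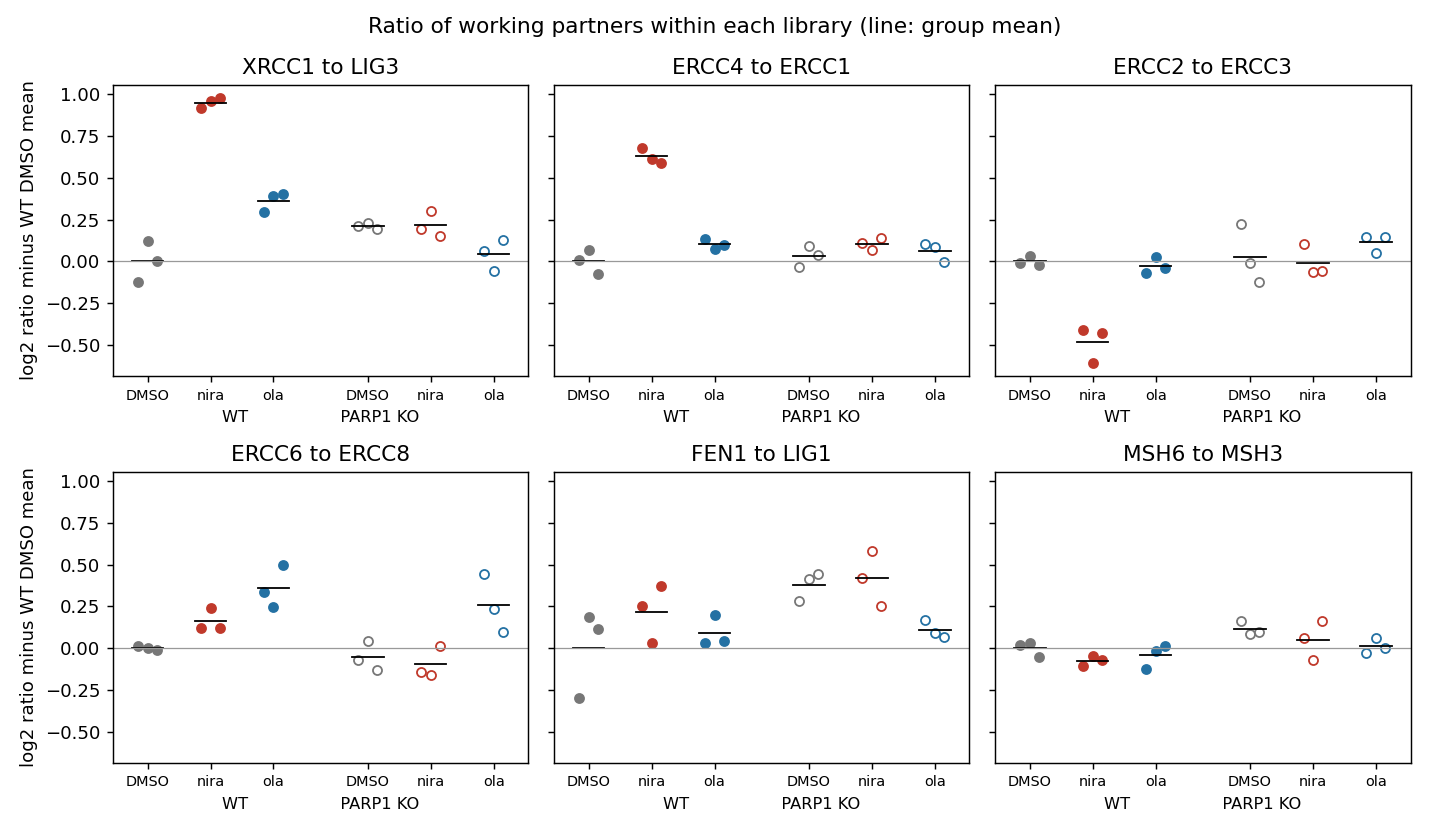
Log2 ratio of partner genes within each library, minus the WT DMSO mean, for 6 pairs (points are libraries, lines group means; WT filled, PARP1 KO open). The WT niraparib libraries stand apart at 0.92 to 0.98 for XRCC1 to LIG3 and at 0.59 to 0.68 for ERCC4 to ERCC1, and MSH6 to MSH3 stays near 0.

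With niraparib in PARP1 KO cells, UNG was the member nearest to the threshold. Of 38 members tested, 0 were called and 0 had an adjusted P value below 0.05 (edgeR), where 0.0136% of 22037 genes were called and 0.059% rose and 0.0499% fell. At an unadjusted P value below 0.05 there were 5 members and 9.14% of all genes. UNG had 103, 100.5 and 110.5 CPM with DMSO and 84.5, 90.6 and 85.5 with niraparib, with no overlap, and its log2 fold change was -0.26 (SE 0.055, adjusted P = 0.065). UNG passed 0.05 with DESeq2 (adjusted P = 0.0079), with no filter on low counts (0.0028) and with all 18 libraries in the fit (0.026), and was the only member to do so in any of these. The members' median log2 fold change was -0.03 (all genes 0.0050).

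The difference between the genotypes was tested directly as an interaction, the niraparib change in PARP1 KO cells minus that in WT cells. Of 39 members 4 were called, 2 in each direction, where 8.88% of 24675 genes were called. These were ERCC5 at 1.01 (SE 0.25, adjusted P = 0.0021), TDP1 at 0.74 (SE 0.081, adjusted P = 6.5e-09), MUTYH at -0.84 (SE 0.17, adjusted P = 2.3e-04) and APTX at -0.62 (SE 0.078, adjusted P = 1.3e-07). For APTX the PARP1 KO libraries had 40.0, 40.6 and 41.0 CPM with DMSO, 39.9, 38.7 and 37.0 with niraparib and 36.25, 34.3 and 35.4 with olaparib. Without the fold threshold, 9 members had a positive interaction (10.4% of all genes) and 13 a negative one (12.5% of all genes). XRCC1 (-0.56), FEN1 (-0.51), XPA (-0.42), MLH3 (-0.41), LIG1 (-0.34), TDG (-0.34), SMUG1 (-0.34), APEX2 (-0.31), UNG (-0.27), ERCC6 (-0.27) and ERCC4 (-0.24) were the other negative ones. NEIL2 (0.50), NTHL1 (0.46), ERCC2 (0.45), RAD23B (0.44), LIG3 (0.38), ERCC1 (0.31) and DDB1 (0.18) were the other positive ones. Of these, DDB1 was lost without any 1 of 7 libraries, LIG1 of 6 and ERCC4 of 5 (adjusted P up to 0.11, 0.084 and 0.11). The interaction shares its WT libraries with the niraparib comparison in WT cells.

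Olaparib called 0 of 39 members in WT cells, where 4.04% of 22446 genes were called (edgeR; 0 also with DESeq2, and 17 members and 30.2% of all genes had an unadjusted P value below 0.05). At an adjusted P value below 0.05, 5 rose (11.2% of all genes) and 7 fell (7.77% of all genes), and the members' median log2 fold change was -0.04 (all genes -0.02). XRCC1 had 44.1, 43.9 and 44.2 CPM, above all 3 DMSO libraries and below all 3 niraparib libraries (0.38, SE 0.059, adjusted P = 7.1e-05). FEN1 was at 126, 134 and 131 CPM, also above DMSO (0.26, SE 0.061, adjusted P = 0.0044). In these WT olaparib libraries the S phase genes summed to between 2577 and 2655 CPM, above DMSO, with 18 of 29 tested genes higher and 0 lower at an adjusted P below 0.05, and the G2/M genes to between 4855 and 4924, below DMSO. MUTYH rose by 0.34 (SE 0.11, adjusted P = 0.026), a call that was lost without any single olaparib library, without WT DMSO replicate 2 and without WT DMSO replicate 3 (log2 fold change from 0.27 to 0.36, adjusted P from 0.051 to 0.13). MBD4, a glycosylase of thymine and uracil in mismatches, rose by 0.22 (adjusted P = 0.0048). PMS2 was at 0.17 (adjusted P = 0.041), but missed the threshold without 5 of the 6 libraries (up to 0.22).

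ERCC8 had the largest fall with olaparib, to 12.75, 13.5 and 11.75 CPM from 16.7, 17.3 and 17.1 with DMSO (log2 fold change -0.42, SE 0.080, adjusted P = 6.1e-04). With niraparib it had 18.3, 16.6 and 16.98 CPM, which overlapped with DMSO. NEIL2 was at 11.45, 14.9 and 12.95 CPM (-0.34, SE 0.092, adjusted P = 0.012), and missed the threshold without WT olaparib replicate 1 (-0.25, adjusted P = 0.096). UNG fell to 71.0, 77.7 and 71.2 CPM from 79.3, 86.6 and 89.8 (-0.21, SE 0.058, adjusted P = 0.012). It was lost without WT olaparib replicate 1 or 3 or WT DMSO replicate 3 (adjusted P from 0.065 to 0.076). TDG (-0.21), ERCC1 (-0.18) and RAD23B (-0.17) fell by less (adjusted P = 0.0044, 0.010 and 0.013), and ERCC1 was lost without WT olaparib replicate 3 (adjusted P = 0.051). DDB1 was at -0.14 (adjusted P = 0.044) and missed the threshold without 5 of the 6 libraries (up to 0.15). RAD23B missed the threshold without WT olaparib replicate 3 or WT DMSO replicate 2 (adjusted P = 0.080 and 0.066). The number of members below 0.05 was 7 without WT olaparib replicate 1 and 6 without WT olaparib replicate 3.

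In PARP1 KO cells olaparib called 0 of 38 members, where 0.803% of 22037 genes were called (edgeR; 0 also with DESeq2, and 15 members and 21.1% of all genes at an unadjusted P value below 0.05). At an adjusted P value below 0.05, 2 members rose (4.42% of all genes) and 8 fell (3.87% of all genes), and the median was -0.07 (all genes 0.0058). UNG fell most, to 73.4, 76.4 and 79.5 CPM, below all DMSO libraries of that genotype (log2 fold change -0.45, SE 0.056, adjusted P = 4.8e-05). ERCC8 had 18.8, 18.15 and 20.1 CPM with DMSO and 13.75, 15.5 and 15.4 with olaparib (-0.35, SE 0.082, adjusted P = 0.0088), and was lost without PARP1 KO DMSO replicate 3 (adjusted P = 0.069). FEN1 fell to 109, 114 and 116 CPM from 134, 134 and 132 (-0.24, SE 0.048, adjusted P = 0.0035), and TDG fell by 0.30 (adjusted P = 0.0020). The S phase sum of these libraries was 2307 to 2382 CPM, below the 2513 to 2541 with DMSO, and the summed luminal markers were lower too, with no overlap between the groups and 4 of 8 markers lower at an adjusted P below 0.05. The part of either in these changes was not tested. The log2 fold changes of XPA (-0.30), NEIL2 (-0.29), HPF1 (-0.27), APTX (-0.20), LIG3 (0.21) and MBD4 (0.19) had adjusted P values between 0.016 and 0.047. None of these 6 held in every fit without 1 library. XPA and MBD4 missed the threshold without any 1 of the 6 libraries (adjusted P from 0.068 to 0.17), NEIL2, HPF1 and APTX without 5 of them (up to 0.24, 0.21 and 0.14) and LIG3 without 3 (up to 0.093). Leaving out any single library left between 4 and 6 members below 0.05. The lowest number came without PARP1 KO olaparib replicate 2, PARP1 KO DMSO replicate 2 or PARP1 KO DMSO replicate 3.

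**Figure D5:**
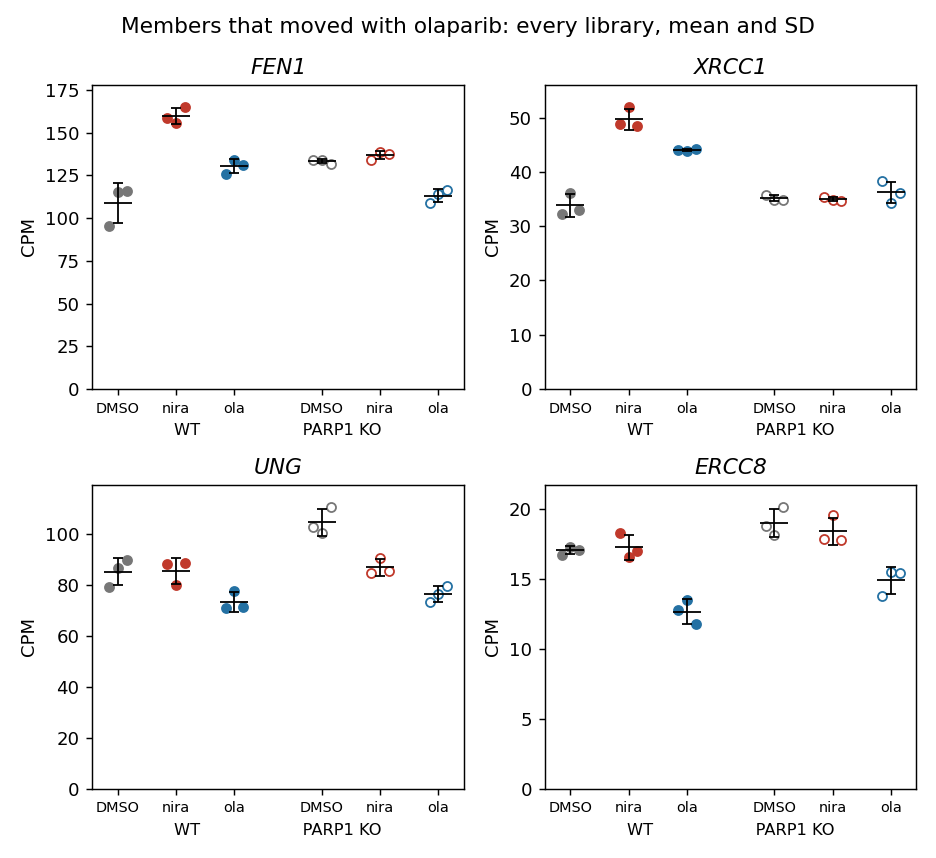
CPM of FEN1, XRCC1, UNG and ERCC8 in every library (points), with group means and SD, for WT (filled) and PARP1 KO (open) cells. ERCC8 and UNG are lower with olaparib than with DMSO in both genotypes, while FEN1 is higher with olaparib in WT cells and lower in PARP1 KO cells.

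The olaparib comparisons of both genotypes share no library. Of the members below 0.05, 6 passed in both, which is 50% of the 12 in WT cells and 60.0% of the 10 in PARP1 KO cells. Over all genes 1012 passed in both, 23.7% of those in WT cells and 55.4% of those in PARP1 KO cells, and 990 of them (97.8%) had the same direction. ERCC8, NEIL2, TDG and UNG were lower and MBD4 higher in both. In PARP1 KO cells TDG and UNG kept the threshold without any 1 library, ERCC8 lost it once, NEIL2 without 5 of the 6 libraries and MBD4 without each of the 6. FEN1 passed in opposite directions, up in WT cells and down in PARP1 KO cells. As an interaction, 0 of 39 members were called for olaparib (0.657% of 24675 genes were; edgeR, 0 also with DESeq2, and 11 members and 15.7% of all genes at an unadjusted P value below 0.05). At an adjusted P value below 0.05, 0 members had a positive interaction (0.912% of all genes) and 3 a negative one (1.35% of all genes). They were FEN1 at -0.50 (SE 0.078, adjusted P = 1.9e-04), HPF1 at -0.40 (SE 0.11, adjusted P = 0.042) and XRCC1 at -0.34 (SE 0.083, adjusted P = 0.022). FEN1 remained below 0.05 without any single library (adjusted P up to 0.0014). HPF1 was lost without any 1 of 9 of the 12 libraries concerned (adjusted P up to 0.14) and held without PARP1 KO olaparib replicate 1, PARP1 KO DMSO replicate 1 or WT DMSO replicate 2. XRCC1 was lost without any 1 of 6 libraries, which were PARP1 KO olaparib replicate 2, PARP1 KO DMSO replicate 1, WT olaparib replicates 1 and 2 and WT DMSO replicates 1 and 3 (adjusted P from 0.051 to 0.088).

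Niraparib and olaparib, which both fit the NAD site of PARP1 but are built on different ring systems, were compared at the same dose and time. In WT cells 1 of 39 members was called between them, where 8.95% of 22446 genes were. It was TDP1, lower with niraparib by 0.74 on the log2 scale (SE 0.058, adjusted P = 2.1e-09). At an adjusted P value below 0.05, 15 members were higher (16.1% of all genes) and 10 lower (16.2% of all genes) with niraparib. The higher ones were led by APTX (0.50), MLH3 (0.45), ERCC8 (0.44), XPA (0.44), MUTYH (0.43) and TDG (0.42). They also held ERCC4 (0.36), SMUG1 (0.33), FEN1 (0.29), PMS1 (0.28), ERCC6 (0.25), UNG (0.22), POLB (0.20) and XRCC1 (0.17), with APEX2 at 0.16 just within the threshold. XRCC1 was lost without any single WT olaparib library or WT niraparib replicate 2 (adjusted P from 0.067 to 0.094). Without single libraries APEX2 was lost in 6 of 6 fits, HPF1 in 5, POLB in 4 and ERCC1 in 1. The lower ones after TDP1 were NTHL1 (-0.52), LIG3 (-0.42), RAD23B (-0.37), ERCC2 (-0.34), PMS2 (-0.33), NEIL3 (-0.32), MBD4 (-0.26), HPF1 (-0.23) and ERCC1 (-0.16).

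Other members did not differ detectably between the drugs in WT cells. For DDB1 the 95% interval of the difference ran from -0.09 to 0.09, for APEX1 from -0.14 to 0.07, for MSH6 from -0.16 to 0.03 and for MSH3 from -0.16 to 0.09. In PARP1 KO cells 0 of 38 members were called between the drugs (1.07% of 22037 genes were; edgeR, 0 also with DESeq2, and 14 members and 22.1% of all genes at an unadjusted P value below 0.05). There 4 members were higher with niraparib at an adjusted P value below 0.05 (4.27% of all genes), ERCC8 (0.31), NEIL2 (0.30), FEN1 (0.28) and UNG (0.19), and 3 were lower (5.73% of all genes), NEIL3 (-0.34), LIG3 (-0.22) and TDP1 (-0.21). FEN1 kept its call below 0.05 without any single library, and the other 6 each lost it without 2 to 4 of them. The number below 0.05 was 2 without PARP1 KO olaparib replicate 1, PARP1 KO olaparib replicate 2 or PARP1 KO niraparib replicate 2.

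Between the WT and PARP1 KO lines with DMSO, UNG and FEN1 were the members that differed at an adjusted P value below 0.05. By the rule with the fold, 0 of 39 members were called, where 0.146% of 24675 genes were (edgeR; 0 also with DESeq2, and 9 members and 13.6% of all genes at an unadjusted P value below 0.05). Both members were higher in PARP1 KO cells, 2 of 39 where 0.811% of all genes were higher, and 0 were lower (0.584% of all genes). UNG was at 0.29 (SE 0.057, adjusted P = 0.0041) and FEN1 at 0.29 (SE 0.055, adjusted P = 0.0029). Within the WT DMSO group both were lowest in replicate 1, and neither passed without that library (0.25 and 0.21, both with an adjusted P of 0.072). That library also had the lowest S phase sum of its group, 2094 CPM against 2263 and 2293. All PARP1 KO libraries with DMSO lay above these, at 2513 to 2541 CPM, with 11 of 29 tested S phase genes higher and 0 lower at an adjusted P below 0.05, and the part of this in the differences of UNG and FEN1 was not tested. The single-strand break members XRCC1, LIG3 and APTX were at 0.05, -0.15 and 0.11 between genotypes, and HPF1 at 0.17, with adjusted P values from 0.14 to 0.75.

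Further genes of these pathways, 31 in all and none of them members, gave 13 higher and 9 lower with niraparib in WT cells at an adjusted P value below 0.05, where 19.9% of all genes were higher and 18.1% lower. Of these 31, 6 were called in at least 1 of the 9 comparisons, as were 18.2% of the 24675 genes tested in any. EXO1, the exonuclease of mismatch repair, had 25.4, 27.9 and 31.2 CPM with DMSO, 66.6, 64.4 and 70.6 with niraparib and 53.4, 54.6 and 52.5 with olaparib in WT cells. Its log2 fold change was 1.25 with niraparib (SE 0.065, adjusted P = 1.5e-12) and 0.93 with olaparib (SE 0.065, adjusted P = 2.7e-09), and 0.06 and 0.21 in PARP1 KO cells (adjusted P = 0.88 and 0.083). POLD3, a subunit of polymerase delta, was called with olaparib (0.65, SE 0.059, adjusted P = 1.1e-07) and rose by 0.56 with niraparib (adjusted P = 1.1e-07), under 1.5-fold. Its difference between the drugs did not pass (adjusted P = 0.25). CUL4B, the scaffold of a ubiquitin ligase with DDB1, was called lower with niraparib (-0.61, SE 0.056, adjusted P = 1.4e-08), but fell short of 1.5-fold without WT niraparib replicate 2 (-0.55). The clamp loader subunits RFC2 and RFC3 and the single-strand binding protein RPA2 rose with niraparib in WT cells, by 0.46, 0.56 and 0.57, under 1.5-fold. They were called in the niraparib interaction, at -0.60, -0.63 and -0.60. All 3 fell short of 1.5-fold without WT DMSO replicate 1 (-0.53, -0.55 and -0.54) and without PARP1 KO DMSO replicate 3 (-0.56, -0.58 and -0.54). RPA2 also did so without PARP1 KO niraparib replicate 3 (-0.53) or WT niraparib replicate 3 (-0.58), and RFC2 without PARP1 KO niraparib replicate 1 (-0.58) or with the filterByExpr filter on low counts (-0.58).

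Over all 9 comparisons, 29 members had an adjusted P value below 0.05 at least once and 10 did not, where 46.1% of the 24675 genes tested in any comparison did. The 10 were OGG1, NEIL1, MPG, APEX1, APLF, TDP2, CHD1L, ERCC3, MSH3 and MSH6. The members that rose with niraparib in WT cells had a median gene span of 37434 bases and a median exon length of 4885 bases, those that fell 43146 and 6227 bases, and those that did not pass 33355 and 4301 bases. A gene starting within 1000 bases on the opposite strand, with a mean of at least 1 CPM, was found for 18 members. These neighbours were looked up after the values were seen. MUTYH with TOE1 was the pair among the 18 in which both rose with niraparib in WT cells. Of the other rising members, FEN1 had TMEM258 at 0.07 and APTX had DNAJA1 at -0.16, and TDP1, which fell, had EFCAB11 at -0.20. Where the member did not rise, the neighbour could: AIMP2 beside PMS2 was at 0.80 and NDUFAF2 beside ERCC8 at 0.54 (edgeR adjusted P = 2.2e-10 and 1.6e-05).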

How the data were processed

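RNA was measured in 18 libraries of T47D cells. The authors trimmed reads with Trimmomatic, aligned them to GRCh38 with STAR, marked PCR duplicates with Picard and deposited raw counts per gene from featureCounts 2.0.0 (exons, reverse strand, Ensembl release 96). Their counting skipped reads that fell on several same-strand genes, so overlapping genes are undercounted. The deposited counts are labelled as deduplicated, which can lower highly expressed genes. Groups were taken from the labels. The test was the robust quasi-likelihood F test of edgeR 4.0.16 (R 4.3.3) after TMM scaling, with Benjamini-Hochberg adjustment, on genes whose counts summed to over 10 in the fitted libraries. Each genotype was fitted on its 9 libraries, and the genotype comparison and interactions on all 18. Calls needed an adjusted P under 0.05 plus a difference over 1.5-fold. The study's legend for these RNA data uses this fold and its methods an absolute log2 fold change of 1.5, so both were run. The SE was taken as the log2 change over the root of F. CPM used TMM factors of all 18 libraries. The biological coefficient of variation was 7.04% (WT), 7.42% (PARP1 KO) and 7.24% (all). On simulated counts with 200 genes changed by 1 on the log2 scale, 188 were recovered for niraparib in WT cells (21913 genes), 189 in PARP1 KO cells (21503 genes) and 164 for the niraparib interaction (24095 genes).

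Of 58884 gene identifiers, 58472 had a symbol. Library totals of 28890837 to 52251288 counts set the precision, and chi-square per gene between replicates was 3.13 to 19.0, so none agreed within sampling noise and some libraries stood apart. Alternatives were another normalization, other filters, DESeq2 1.42.0, a replicate block, other libraries in the fit, other thresholds and leaving out each library. Named with values per library were the members called in any comparison, then those below 0.05 by size of change until 15 were reached, and the called genes among 31 others of these pathways. The members and lists were chosen with earlier results of these data known.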

Additional observations from a re-analysis of the deposited data

Results flagged for a closer look

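The niraparib effect differed between genotypes in a direct test, the interaction of the edgeR model over all 18 libraries. At an adjusted P value below 0.05 it did so for 22 of 39 members, a larger share than the 22.9% of all 24675 genes. For 4 of the 39 it was also over 1.5-fold, a share near the 8.88% of all genes. MUTYH (-0.84) and APTX (-0.62) had a lower log2 change in PARP1 KO than in WT cells, and TDP1 (0.74) and ERCC5 (1.01) a higher one. ERCC5 rests on 59 to 134 counts in a library. Among other genes of these pathways the niraparib interaction was -1.20 for EXO1, -0.63 for RFC3, -0.60 for RPA2 and -0.60 for RFC2. The olaparib interaction was -0.72 for EXO1. Groups of 3 libraries are too small for the test of a single sample far from the others.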

How the results depend on the processing

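The number of members called kept its value in all 9 comparisons under RLE size factors, both other filters on low counts, DESeq2, the replicate block and fits with other libraries. Dropping the fold threshold gave 24 members with niraparib and 12 with olaparib in WT cells, 25 between the drugs in WT cells, 10 with olaparib and 7 between the drugs in PARP1 KO cells, 2 between genotypes with DMSO, and 22 and 3 for the niraparib and olaparib interactions. Requiring an absolute log2 fold change above 1.5, as the study's methods do, left 0 in every comparison. Leaving out 1 library gave 2 to 5 members called with niraparib in WT cells (5 without WT DMSO replicate 2, with FEN1 and XRCC1 added), 1 to 1 between the drugs in WT cells, 4 to 5 for the niraparib interaction, and 0 to 0 elsewhere. PARP1 in PARP1 KO cells was at 7.32 to 7.55% of WT without any 1 library and at 7.27% without TMM factors, both chosen after seeing the data, as was leaving out each library for the members not among the 15 named with values. Of 1367 alternatives to 95 single-gene results, 1262 kept direction and side of the threshold, 105 lost the threshold and 0 reversed, and the cause was not tested. Among the 105 was RFC2 in the niraparib interaction with filterByExpr (-0.58). Of 126 alternatives to the members' median log2 changes, 20 moved it beyond the spread between libraries, each by leaving out 1 library. The widest move was between the drugs in WT cells, from 0.04 to 0.12 without WT niraparib replicate 1.

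No pairing of the libraries by replicate number was seen. Deviations of same-numbered libraries correlated between -0.54 and 0.55, and 0 of the 18 libraries correlated best with their own number in both other groups of their genotype. These are deviations from means of 3 libraries, on which 1 outlying library weighs heavily, so the check cannot exclude a pairing. With the replicate block, members below 0.05 with olaparib in PARP1 KO cells went from 10 to 5, with APTX at 0.069, NEIL2 at 0.059, XPA at 0.059, HPF1 at 0.054 and MBD4 at 0.074 (edgeR adjusted P), against 11 with DESeq2. With olaparib in WT cells they went from 12 to 10, with DDB1 at 0.085 and PMS2 at 0.051. HPF1 in the olaparib interaction was at 0.056, APEX2 between the drugs in WT cells at 0.076 and DDB1 in the niraparib interaction at 0.050. Depth limits APLF, CHD1L and ERCC5.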
